A study of Sus scrofa with 30 samples.

Results

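Cytokines, chemokines and their receptors were followed in pig cerebral cortex through cardiac arrest, resuscitation and treatment with methylene blue. The members were the probe sets whose single gene symbol starts with CXCL, CXCR, CCL or CCR and a digit, with IL and a digit, with TNF, with IFN, or with CSF and a digit, leaving out CXCL2 and IL1B. This gave 90 probe sets for 77 genes, out of 23999 probe sets on the array, of which 10069 carry 1 symbol. They comprise 21 probe sets for chemokine ligands, 7 for chemokine receptors, 21 for interleukins, 14 for interleukin receptors, 5 for ligands of the tumour necrosis factor (TNF) family, 6 for TNF receptors, 6 for TNF-induced proteins, 4 for interferons, 4 for interferon receptors and 2 for colony-stimulating factors. No member was found under the names IL1RN, IL6ST, TNFAIP3, CXCL10, CSF1 or CSF1R.

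Cytokines are secreted proteins by which cells of the immune system, glia and endothelium signal to each other, and chemokines are the cytokines that direct the migration of leukocytes. IL1, TNF and their receptors act early in sterile brain injury, mainly through the transcription factor NF-kappaB, and many interleukins and interferons signal through JAK kinases and STAT factors. Ischemia followed by reperfusion is a textbook trigger of this response in brain. Methylene blue is a redox-active dye and a known blocker of the nitric oxide pathway.

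The animals were prepubertal Swedish triple-breed pigs of both sexes, 12 to 14 weeks old, under pentobarbital anaesthesia, and ventricular fibrillation was induced by electric current. In 4 groups the arrest was left untreated, and the brain was taken at 0, 5, 20 or 30 min without resuscitation. The 0 min group is labelled as the untreated cardiac arrest control. It spent no time in arrest, and it counts among the 4 arrest groups wherever these are pooled. The other 6 groups had 12 min of arrest and 8 min of mechanical chest compressions before the countershock, and the brain was taken 30, 60 or 180 min after the return of spontaneous circulation. Of these, 3 groups (the saline arm) received saline at 55 mL/kg/h and 3 (the methylene blue arm) the same infusion with methylene blue at 7.5 mg/kg/h, from 1 min after the start of compressions to 50 min after the return of circulation, so that the 30 min brains were taken during the infusion. In the plots the untreated arrest, saline and methylene blue groups are marked CA, SAL and MB, with the minutes. Each group held 3 arrays, labelled as biological replicates, which gave 30 Affymetrix arrays of total RNA. The samples analysed here hold no pigs kept alive for the same time without arrest, so the effects of time under anaesthesia and of infusion cannot be told apart from those of arrest and reperfusion.

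Median intensity over all probe sets was 88.0 to 97.6 on the 12 untreated arrest arrays, 87.1 to 105 on the 9 saline arrays and 97.6 to 108 on the 9 methylene blue arrays. The share of all probe sets under an intensity of 30 was 30.6% to 32.3%, 28.2% to 32.6% and 24.0% to 28.3% in the same order, so that each methylene blue array but 1 had a smaller share than any saline array. The methylene blue arrays also had lower log2 ratios of 3′ to 5′ signal of the control transcripts, 0.47 to 1.28 against 0.99 to 2.51 on the saline arrays. The 5 arrays that correlated least with the others were replicate 1 of saline at 30 min, replicate 2 of methylene blue at 30 min, replicates 2 and 3 at 60 min and replicate 3 at 180 min. The measured markers of neurons, astrocytes, oligodendrocytes and endothelium were all above 30, as a label of cortex calls for, and 6 of the 7 lymphocyte markers measured were under 30.

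Most of the classical inflammatory cytokines were dim. Of the 90 members, 44 (48.9%) had a mean level under an intensity of 30, against 30.2% of all probe sets, the level being the mean of log2(intensity + 16) over the 30 arrays turned back to intensity. The dim members were 16 of the 21 interleukins, 3 of the 4 interferons, both colony-stimulating factors and 3 of the 5 TNF ligands, while 15 of the 21 chemokine ligands, 5 of the 6 TNF receptors and all 4 interferon receptors were at 30 or above. TNF (29.0), IL15 (28.9) and IL13RA1 (29.2) lay just under this value and CCL24 (30.1), CCL19 (31.1) and CCR1 (32.8) just over it. By the highest of the 10 group means instead, 36.7% of the members were under 30. A probe set's intensity depends on its probes as well as on the transcript, so levels place a probe set near or far from the low end and do not rank genes by abundance.

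Among the ligands, CXCL14, a chemokine of epithelia and brain, had the highest level at 3447 (2162 on its other probe set), and CXCL13, which attracts B cells, the lowest at 4.44 on 1 probe set. CXCR4, the receptor for CXCL12, was the highest chemokine receptor at 135, and CCR3 the lowest at 6.13. IL34, a neuronal ligand of the colony-stimulating factor 1 receptor, stood highest among interleukins at 475, and IL13 lowest at 2.34. Interleukin receptors ran from IL4R at 4.38 on 1 of its probe sets to IL11RA at 178. TNFRSF21, a death receptor of neurons and oligodendrocytes, was the highest TNF receptor at 1064, with TNFRSF17 lowest at 4.58. TNFSF13 at 127 and TNFSF10 at 10.2 bounded the TNF ligands, and TNFAIP1 at 293 and TNFAIP8 at 8.60 the TNF-induced proteins. IFNAR1 at 592 and IFNAR2 at 46.9 on 1 probe set bounded the interferon receptors, IFNA1 at 51.0 and IFNB1 at 3.35 the interferons, and CSF3 stood at 20.3 beside CSF2 at 3.03. IFNA1 and CCL3L1 belong to families of near-identical copies, so their probe sets may read more than 1 gene.

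**Figure D1:**
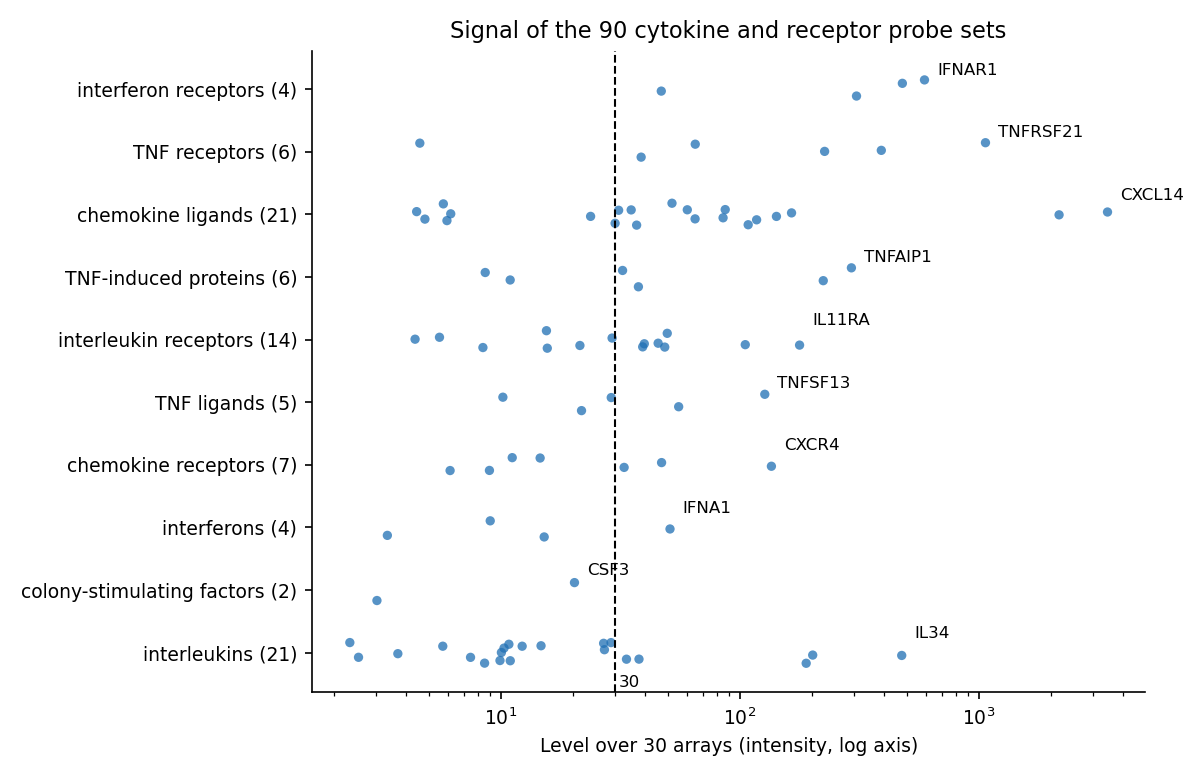
Mean level of each of the 90 member probe sets over the 30 arrays (log axis, intensity in the array's arbitrary units), by subgroup, with a dashed line at an intensity of 30. Of the interferons 3 of 4, both colony-stimulating factors and 16 of 21 interleukins lie under the line, and all 4 interferon receptors above it.

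Across 17 comparisons fitted with limma, 39 member probe sets of 34 genes passed an adjusted p of 0.05 at least once and 51 passed in none. No share of all probe sets called at least once is given, so these counts do not set the members apart. Methylene blue against the mean of the arrest groups alone called 37.8% of the members and 33.6% of all probe sets. A call here means a Benjamini-Hochberg adjusted p under 0.05 over all 23999 probe sets, and a difference is in log2(intensity + 16), which understates changes of dim probe sets. In the 7 comparisons without methylene blue arrays, 2 members were called, where each comparison called 0% to 1.02% of all probe sets. In cortex a change in the number of cells of a type and a change in RNA per cell cannot be told apart.

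**Figure D2:**
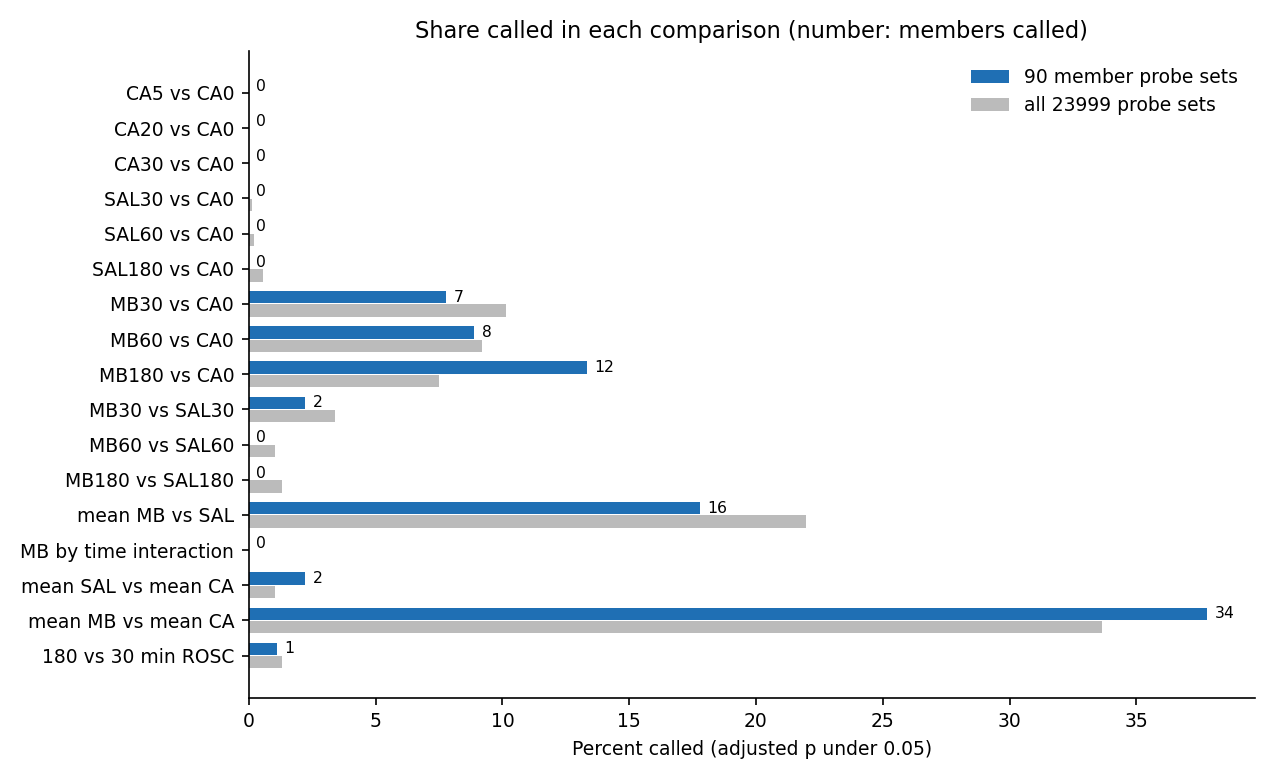
Percent of the 90 members (blue bars, with the number called) and of all 23999 probe sets (grey bars) called at an adjusted p under 0.05 in each of the 17 comparisons. The members were called at 17.8% against 22.0% for the mean of methylene blue minus saline, and at 2.22% against 1.02% for the mean of saline minus untreated arrest.

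Untreated arrest of up to 30 min left no called change in cytokine or chemokine probe sets. The question of these groups is what arrest does before blood flow returns. None of the 90 members was called at 5, 20 or 30 min against 0 min, where 0%, 0.0125% and 0.00833% of all probe sets were. At an unadjusted p under 0.05 there were 2, 3 and 1 members, against 2.19%, 4.14% and 3.82% of all probe sets. IL1A, an alarm cytokine released by dying cells, had the smallest p at 5 min (log2 difference 0.74 ± 0.32, SE, n = 3 and 3) and at 20 min (0.96 ± 0.32), with an adjusted p of 1.0 at both. Its intensities were 13.4, 3.80 and 7.57 at 0 min, 27.1, 27.4 and 18.4 at 5 min, 23.0, 32.8 and 37.2 at 20 min, then 2.74, 15.3 and 22.2 at 30 min. All values at 5 and 20 min lay above all those at 0 min, a separation that 7.91% and 9.91% of all probe sets also showed, whereas the 30 min values overlapped them. At 5 min the next smallest p-values belonged to TNFAIP8L2 (-0.45) and IL15 (-0.41), and at 20 min to TNF (-0.65) and IL12RB2 (0.50). At 30 min CXCL9, an interferon-induced chemokine, differed by -0.96 ± 0.40, IL1R1 by 0.33 and CCL27 by 0.35, and none passed.

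After resuscitation with saline, TNFRSF12A and CCL2 rose over the pooled untreated arrest groups. TNFRSF12A encodes the receptor of the cytokine TWEAK and is known as a gene induced by injury, and CCL2 encodes the main chemokine for monocytes. These were 2 of the 90 members (2.22%), against 1.02% of all probe sets, both upward (0.804% of all were called higher and 0.217% lower), and they came from the comparison of the mean of the 3 saline groups with the mean of the 4 arrest groups. At the single times no member was called at 30, 60 or 180 min against 0 min of arrest, where 0.138%, 0.196% and 0.558% of all probe sets were. At an unadjusted p under 0.05, 7, 9 and 13 members stood beside 6.75%, 5.79% and 7.88% of all probe sets. The members' median difference was 0.08, 0.02 and 0.11 at the 3 times, against 0.03, 0.02 and 0.01 over all probe sets.

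The dimmer of the TNFRSF12A probe sets (level 38.6) read 24.2, 25.8 and 25.7 at 0 min of arrest, 21.9, 9.77 and 25.6 at 5 min, 29.0, 39.5 and 31.0 at 20 min and 14.1 to 19.9 at 30 min. With saline it read 40.6, 40.2 and 38.1 at 30 min, 79.6, 29.6 and 54.9 at 60 min, then 52.0, 73.7 and 52.9 at 180 min. Of the 9 saline arrays, 7 lay above every arrest array and all 9 above the arrest median of 24.9. The difference was 0.76 ± 0.14 (SE, n = 9 and 12, 95% interval 0.47 to 1.04, adjusted p = 0.00283), with an adjusted p of at most 0.012 when any 1 array was left out. The call held under each alternative that tested the probe set, which the filter at the 50th percentile of level removed. The brighter probe set (level 65.0) gave 0.75 ± 0.26 and did not pass (adjusted p = 0.245): its arrest values were spread from 11.7 to 79.3. At 180 min alone the dimmer probe set differed from 0 min by 0.86 ± 0.26 (adjusted p = 0.18), with no overlap between the saline and the control values, as for 13.6% of all probe sets. At 60 min it differed by 0.71 (adjusted p = 0.656).

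CCL2 read 191, 47.0 and 75.3 at 0 min of arrest, 146, 142 and 34.3 at 5 min, 112, 46.3 and 51.7 at 20 min, then 42.4, 53.1 and 38.8 at 30 min. With saline it read 385, 216 and 132 at 30 min, 387, 117 and 334 at 60 min, then 88.7, 205 and 164 at 180 min. Every saline array lay above the arrest median of 52.4 and 5 of 9 above the highest arrest array, which was replicate 1 at 0 min. The difference was 1.32 ± 0.31 (95% interval 0.70 to 1.95, adjusted p = 0.0278). The call was lost without the 5 least correlated arrays (adjusted p = 0.146) and on leaving out any of 10 single arrays, with adjusted p from 0.0517 to 0.0878: replicates 2 and 3 at 0 and at 20 min of arrest, replicate 3 at 5 min, replicate 1 of saline at 30 min, replicates 1 and 3 at 60 min and replicates 2 and 3 at 180 min. Against 0 min alone the differences were 1.18, 1.33 and 0.60 at 30, 60 and 180 min, none of them called.

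Other chemokines of monocytes and lymphocytes were widely spread within groups, and none passed. CCL8 read 294, 65.8 and 120 at 0 min of arrest, 412, 344 and 227 at 30 min of saline and 84.7, 77.2 and 145 at 180 min. Its differences from 0 min were 1.15, 0.40 and -0.40 at 30, 60 and 180 min, and over the saline arm 0.47 (95% interval -0.09 to 1.04). CCL4, a chemokine of macrophages, read 187, 52.3 and 58.4 at the start of arrest and 290, 208 and 44.2 after 5 min, and its saline difference was 0.26 (-0.26 to 0.78). The same array, replicate 1 at 0 min, was the highest of its group for CCL2, CCL8, CCL4 and CCL3L1, the last at 59.7 against 13.5 and 15.3. CCL3L1 differed by -0.05 over the saline arm (-0.61 to 0.51). CXCL9 differed by -0.58 over the saline arm (adjusted p = 0.335), the only ligand besides CCL2 with an unadjusted p under 0.05. Over all 21 ligand probe sets the median difference was -0.05 and 8 were positive, against a median of 0.01 and 54.1% positive over all probe sets.

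Among receptors of the TNF and interleukin families 1 probe set, that of TNFRSF12A, was called with saline. All 6 TNF receptor probe sets and all 14 interleukin receptor probe sets had a positive difference from untreated arrest, with medians of 0.15 and 0.11. Over all probe sets 54.1% were positive. Some of these receptor probe sets share a gene, and some differences were small, as 0.02 for 1 of IL1R1 and 0.05 for 1 of IL4R. TNFRSF1B, a TNF receptor of immune and endothelial cells, had the smallest p of all members at 180 min: it read 281, 311 and 395 at 0 min and 459, 510 and 597 with saline, groups that did not overlap, and the difference of 0.65 ± 0.19 missed the threshold (adjusted p = 0.154). TNFAIP8, a regulator of cell death, differed by 0.73 at 180 min (adjusted p = 0.169, or 0.0205 with array weights) and by 0.67 at 30 min on its dimmer probe set, and by 0.29 and 0.28 on the brighter. IFNAR2, a chain of the type I interferon receptor, differed over the saline arm by 0.33 ± 0.09 (adjusted p = 0.0774, or 0.0383 with array weights). IL18R1 gave 0.77 at 60 min (adjusted p = 0.61). IFNA1 differed by -0.70 at 30 min (adjusted p = 0.635).

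IL1A again had the smallest p at 30 and 60 min of saline, with differences from 0 min of 1.10 ± 0.32 (adjusted p = 0.429) and 1.0 (adjusted p = 0.498). Its saline intensities were 53.8, 28.2 and 27.8 at 30 min, 34.6, 34.2 and 27.0 at 60 min, then 8.73, 49.7 and 20.1 at 180 min. The 30 and 60 min values all lay above those at 0 min, as for 10.6% and 11.7% of all probe sets, but reached the range of the 5 and 20 min arrest values. The second IL1A probe set differed by -0.16 at 180 min, where the first differed by 0.70.

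**Figure D3:**
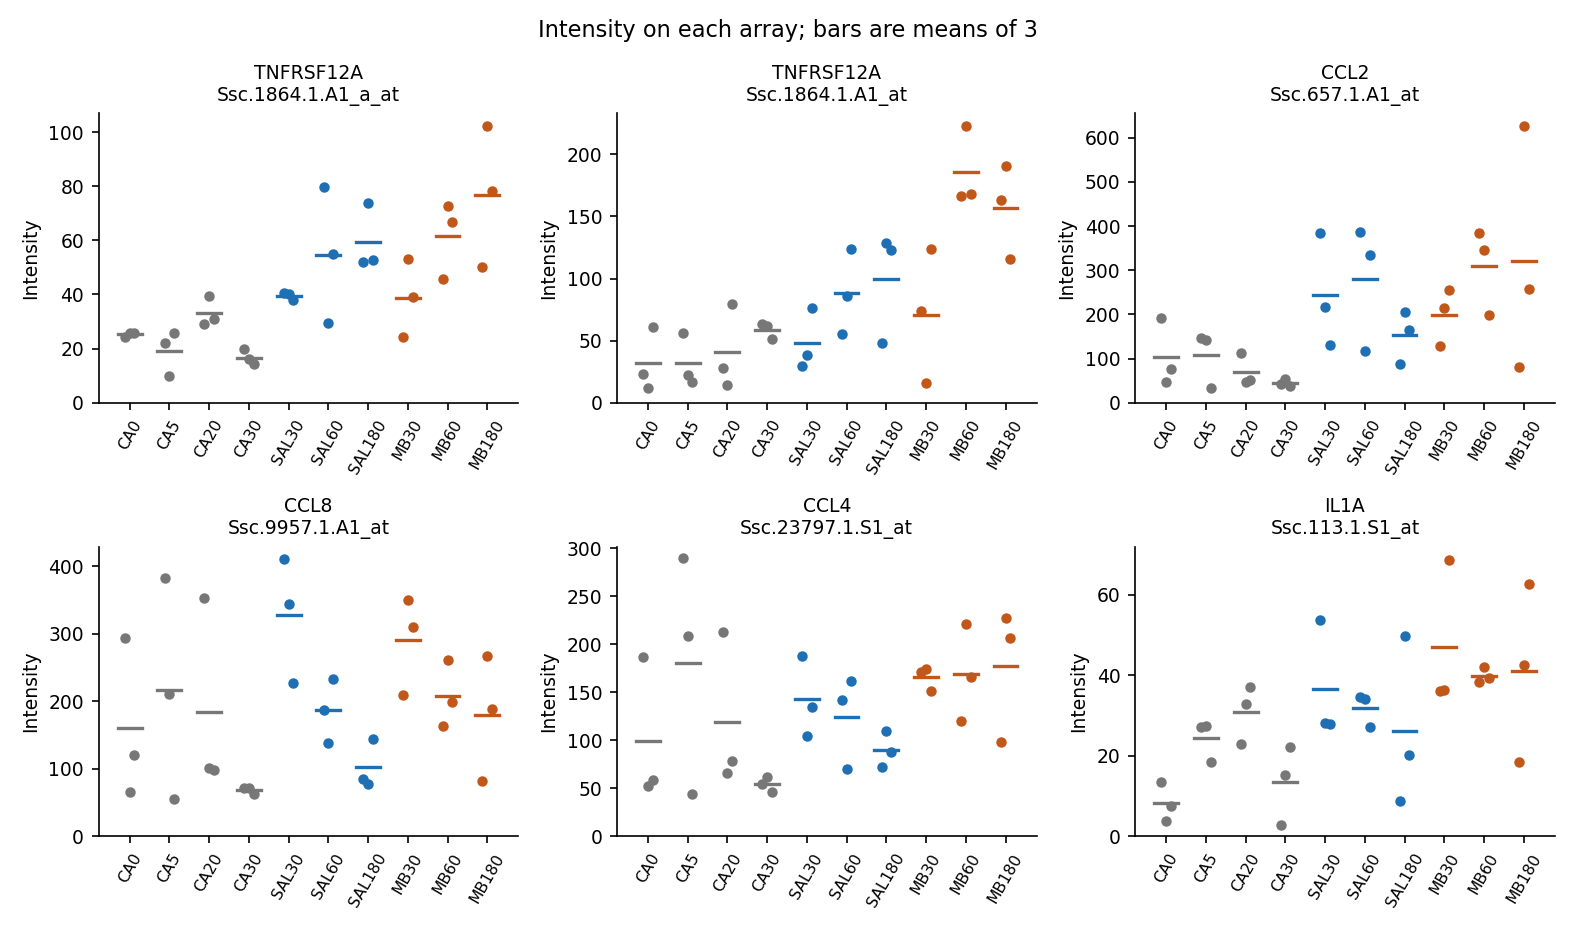
Intensity on each array (points, arbitrary units) and mean of 3 (bars) in the 10 groups for both TNFRSF12A probe sets, CCL2, CCL8, CCL4 and IL1A. TNFRSF12A and CCL2 lie higher in the saline and methylene blue groups than in most arrest groups, and CCL8 and CCL4 are widely spread at 0 and 5 min of arrest.

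Other members well known from brain injury were not called after resuscitation with saline, and the intervals of their differences from untreated arrest are given. IL1B and CXCL2 are not among them, as the rule for the members left them out. IL1A, given above by time, differed over the saline arm by 0.45 and 0.27 on its probe sets and was not called. IL6, an acute phase cytokine, read 1.18, 8.62 and 20.1 as lowest, median and highest of 12 arrest arrays and 2.16, 10.8 and 15.99 on 9 saline arrays, overlapping throughout, with a difference of 0.01 (95% interval -0.28 to 0.31). CXCL8, the neutrophil chemokine once named IL8, read 0.241, 1.24 and 12.2 against 1.41, 5.56 and 9.19, with a difference of 0.12 (-0.14 to 0.37). For TNF the interval ran from -0.01 to 0.67 around 0.33, for IL18 from -0.09 to 0.65 around 0.28 and for the anti-inflammatory IL10 from -0.36 to 0.14 around -0.11. IFNB1 (-0.04, interval -0.25 to 0.16), IFNG (0.03, -0.30 to 0.36), CSF2 (-0.01, -0.18 to 0.16) and CSF3 (0.20, -0.24 to 0.64) were all dim. These intervals are on the log2(intensity + 16) scale, so for probe sets near or below 16 they allow larger folds in the transcript itself. Among brighter members, CCL5 differed by -0.06 (-0.52 to 0.41), CXCR4 by 0.08 (-0.23 to 0.39), TNFRSF1A by 0.09 (-0.09 to 0.27) and TNFRSF21 by 0.14 (0.02 to 0.27, adjusted p = 0.443). TNFAIP6, a hyaluronan-binding protein induced by TNF and IL1, differed by 0.06 (-0.25 to 0.36).

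Between 30 and 180 min after the return of circulation, averaged over both arms, TNFAIP1 rose and was the only member called (1 of 90, against 1.29% of all probe sets). TNFAIP1 encodes an adaptor of a ubiquitin ligase. It read 232, 248 and 274 with saline and 260, 258 and 282 with methylene blue at 30 min, and 393, 366 and 362 and 324, 339 and 431 at 180 min. All 6 late arrays lay above all 6 early ones, as for 1.03% of all probe sets, and the difference was 0.48 ± 0.11 (adjusted p = 0.0269). The call was lost when only the compared groups were fitted (adjusted p = 0.0692), with the 3′/5′ ratio as a covariate (0.113), without the 5 least correlated arrays (0.0811) and in 5 of 12 fits that left out 1 array (replicate 2 of saline and replicates 1 and 2 of methylene blue at 30 min, replicate 1 of saline and replicate 3 of methylene blue at 180 min). TNFRSF1B (0.46, adjusted p = 0.084) and TNFRSF12A (0.59, adjusted p = 0.122) followed.

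Methylene blue against saline was the comparison of most calls among those between treated arms, and it went upward for most members. Over the 3 times jointly, 14 members were higher and 2 lower with methylene blue, 16 of 90 (17.8%) against 22.0% of all probe sets, of which 14.0% were higher and 7.93% lower. The members were thus not called more often than probe sets at large. Their median difference was 0.21 against 0.07 over all probe sets. By level, the median was 0.27 for members under 30 against 0.18 for all probe sets under 30, and 0.19 for those at 30 or above against 0.02. In 20 classes of level the median difference of all probe sets was 0.09 to 0.24 below a level of 96.1 and -0.06 to 0.03 from a level of 124 upward, and 52 of the 90 members lay above the median of their class.

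The direction of the calls depended on how the arrays were scaled. After quantile normalization, which gives every array the same distribution, 3 members were higher and 4 lower, and after centring each array on its median 5 were higher and 4 lower. The share of higher calls among all called probe sets was 63.9% as deposited, 46.2% and 38.1%. The median difference of all probe sets moved from 0.07 to -0.01 and -0.02, and that of the members from 0.21 to 0.04 and 0.11 (from 0.19 to 0.01 and 0.10 for members at 30 or above). Of the 16 calls, 5 stood under quantile normalization: IL1R1, IL13RA1, CXCL14, IL34 and IFNGR1. IL27RA (-0.64, adjusted p = 0.0159) and IL11RA (-0.36, adjusted p = 0.0496) were called after that normalization only.

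**Figure D4:**
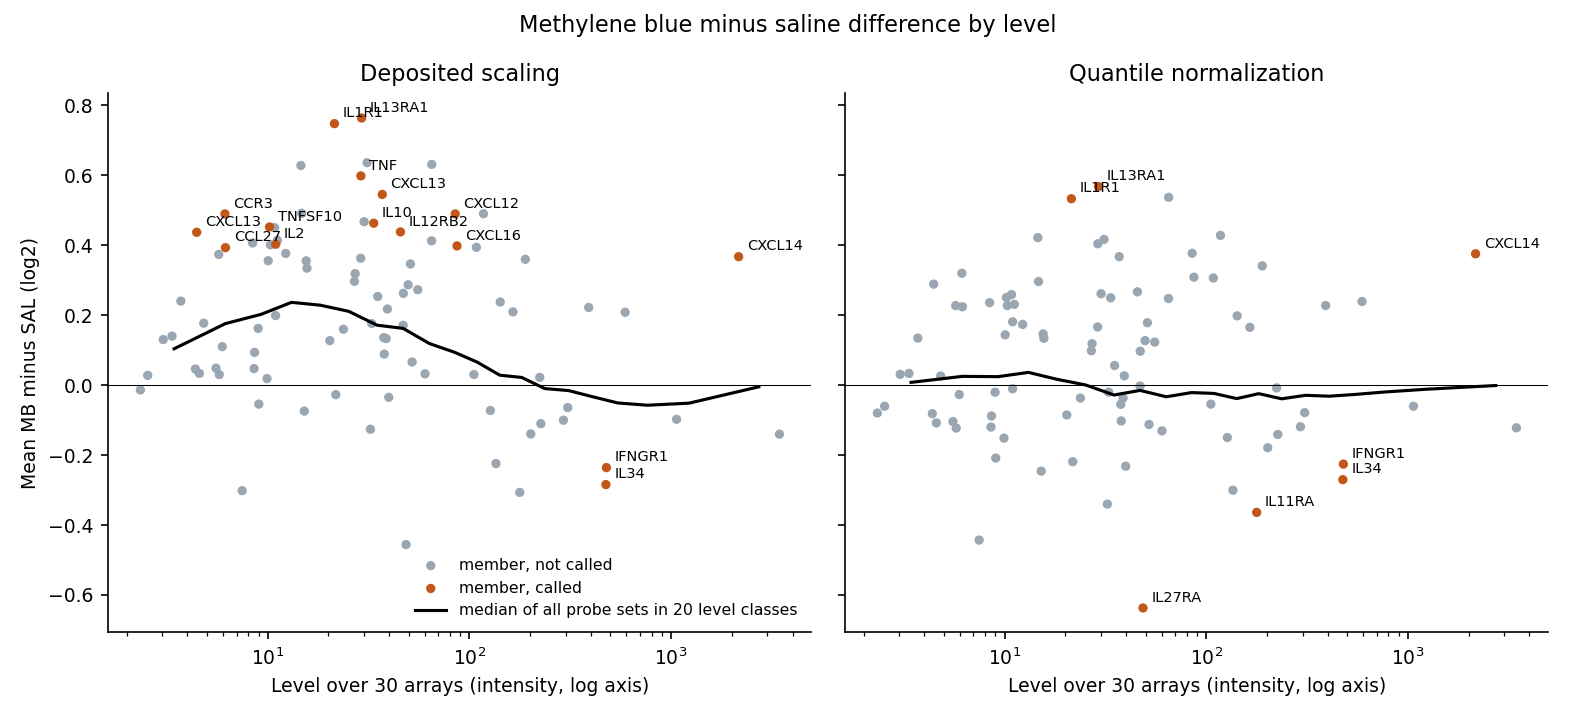
Mean difference of methylene blue minus saline (log2) of each member against its level (log axis), as deposited and after quantile normalization; the line is the median of all probe sets in 20 classes of level. As deposited the line runs from 0.10 to 0.24 at the low end to -0.06 at high levels, and after quantile normalization it stays within 0.04 of 0.

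IL1R1, the signalling receptor of IL1A and IL1B, showed the clearest difference between the arms. Its dimmer probe set (level 21.4) read 16.6, 13.6 and 12.2 with saline at 30 min, 21.5, 18.7 and 14.4 at 60 min, then 21.3, 17.0 and 12.3 at 180 min. With methylene blue it read 44.2, 47.2 and 44.9, then 30.2, 36.5 and 40.2, then 37.9, 27.9 and 37.0. All 9 methylene blue arrays lay above all 9 saline arrays, a separation that 1.54% of all probe sets showed, while the 12 arrest arrays ran from 7.54 to 30.3. The mean difference was 0.75 ± 0.11 (SE, n = 9 and 9, adjusted p = 6.96e-05) as deposited and 0.53 after quantile normalization, against a median of 0.23 for its class of level. It was called under each alternative that tested it, which leaves out the filters at the 30th and 50th percentile of level. By time the difference was 1.03 ± 0.19 at 30 min (adjusted p = 0.00522), 0.59 ± 0.19 at 60 min (0.124) and 0.62 ± 0.19 at 180 min (0.0976). The brighter probe set (level 49.7) differed by 0.29 and did not pass (adjusted p = 0.128), and it gave -0.05 at 60 min.

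IL13RA1, a chain of the receptors for IL4 and IL13, read 33.4, 24.7 and 23.2, then 34.3, 8.99 and 25.9, then 22.8, 27.2 and 11.5 with saline at the 3 times. With methylene blue it read 39.7, 54.0 and 58.1, then 36.8, 79.8 and 51.0, then 29.0, 51.2 and 60.0. Of the 9 methylene blue arrays, 8 lay above every saline array. The difference was 0.76 ± 0.15 (adjusted p = 0.000852), and 0.57 after quantile normalization, against 0.21 for its class of level. This call held under the same alternatives, and the same filters removed the probe set. At single times it did not pass (0.62, 0.89 and 0.77 at 30, 60 and 180 min, adjusted p from 0.0854 to 0.163). A further interleukin receptor chain, IL12RB2, differed by 0.44 ± 0.14 (adjusted p = 0.028).

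CXCL14 was called on 1 of its probe sets, that with a level of 2162, which ran from 1420 through a median of 2034 to 2487 with saline and from 1726 through 2713 to 3027 with methylene blue, with 6 of 9 methylene blue arrays above every saline array. Its difference was 0.37 ± 0.11 (adjusted p = 0.0195), and it was lost on median centring, with the 3′/5′ covariate (adjusted p = 0.274) and without the 5 least correlated arrays (0.347). The other probe set differed by -0.14, in the opposite direction.

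TNF, the name-giving cytokine of its family, read 39.6, 27.0 and 42.7, then 30.5, 10.8 and 31.6, then 39.4, 26.5 and 12.4 with saline. With methylene blue it read 45.2, 63.4 and 34.1, then 54.2, 102 and 47.3, then 31.0, 44.5 and 48.4, so 7 of 9 arrays exceeded every saline array. The difference was 0.60 ± 0.18 (adjusted p = 0.0183), against 0.21 for its class of level, and was lost after quantile normalization (adjusted p = 0.10), with the 3′/5′ covariate (0.456) and without the 5 least correlated arrays (0.19). IL10 ran from 9.23 through 27.6 to 54.7 with saline and from 31.1 through 39.1 to 58.6 with methylene blue, overlapping, and differed by 0.46 ± 0.13 (adjusted p = 0.0127).

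The remaining upward calls were on 8 probe sets, of which 5 belonged to chemokine ligands. CXCL13 differed by 0.44 ± 0.12 and 0.55 ± 0.16 on its 2 probe sets (adjusted p = 0.013 and 0.0185), CCL27, a skin chemokine, by 0.39 ± 0.12 (0.0195), CXCL16, a membrane-bound ligand, by 0.40 ± 0.14 (0.0428), and CCR3 by 0.49 ± 0.16 (0.0283). CXCL12, the ligand of CXCR4, gave 0.49 ± 0.15 (adjusted p = 0.0206) on 1 probe set and 0.39 (0.0706) on the other. TNFSF10, a death ligand, differed by 0.45 ± 0.14 (adjusted p = 0.022) and IL2, the T-cell growth factor, by 0.40 ± 0.14 (0.0406). IL10 and all of these lost their call after quantile normalization. Over all 21 ligand probe sets 20 differences were positive, with a median of 0.37, beside 61.2% positive and a median of 0.07 over all probe sets. After quantile normalization 15 were positive and 6 negative, with a median of 0.22.

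Lower with methylene blue were IL34 and IFNGR1, both bright. IL34 ran from 421 through 530 to 627 with saline and from 351 through 423 to 510 with methylene blue, and 1 of 9 methylene blue arrays exceeded the arrest median of 501. Its difference was -0.28 ± 0.09 (adjusted p = 0.0217). IFNGR1, a chain of the interferon gamma receptor, ran from 418 through 477 to 622 with saline and from 271 through 442 to 551 with methylene blue, and differed by -0.24 ± 0.07 (adjusted p = 0.023). Both calls stood after quantile normalization and were lost with the 3′/5′ covariate and without the 5 least correlated arrays.

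At single times fewer members passed. At 30 min 2 of 90 were called, against 3.39% of all probe sets: IL1R1, given above, and IL2, which read 3.04, 2.83 and 12.9 with saline and 15.7, 26.8 and 30.2 with methylene blue, without overlap, as for 22.2% of all probe sets (0.87 ± 0.24, adjusted p = 0.0456). At 60 and 180 min none was called, against 1.04% and 1.33% of all probe sets, and at an unadjusted p under 0.05 there were 11 and 14 members against 16.1% and 17.3%. The smallest p-values at 60 min belonged to IL13RA1, TNF (1.05, adjusted p = 0.0933) and IFNGR1 (-0.40), and at 180 min to IL1R1, CXCL13 (0.88) and IL13RA1. The test of whether the difference varied between the 3 times called no member and no probe set at all (limma, F test), with 1 member against 3.96% of all probe sets at an unadjusted p under 0.05. That member was TNFAIP8 (unadjusted p = 0.0202), followed by TNFSF4 (0.0572) and CCR3 (0.0584), all with an adjusted p of 1.0. When the 30 min groups were fitted alone, neither IL1R1 (adjusted p = 0.119) nor IL2 passed. In that fit 0.0333% of all probe sets were called, so few on the whole array passed.

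The members that rose with saline did not pass between the arms. The dimmer TNFRSF12A probe set differed by 0.13 (95% interval -0.17 to 0.44) and the brighter by 0.63 (0.07 to 1.19, adjusted p = 0.0965). CCL2 differed by 0.24 (-0.43 to 0.91), and IL6 by 0.05 (-0.27 to 0.36). A missed threshold does not show that these members were alike in both arms.

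**Figure D5:**
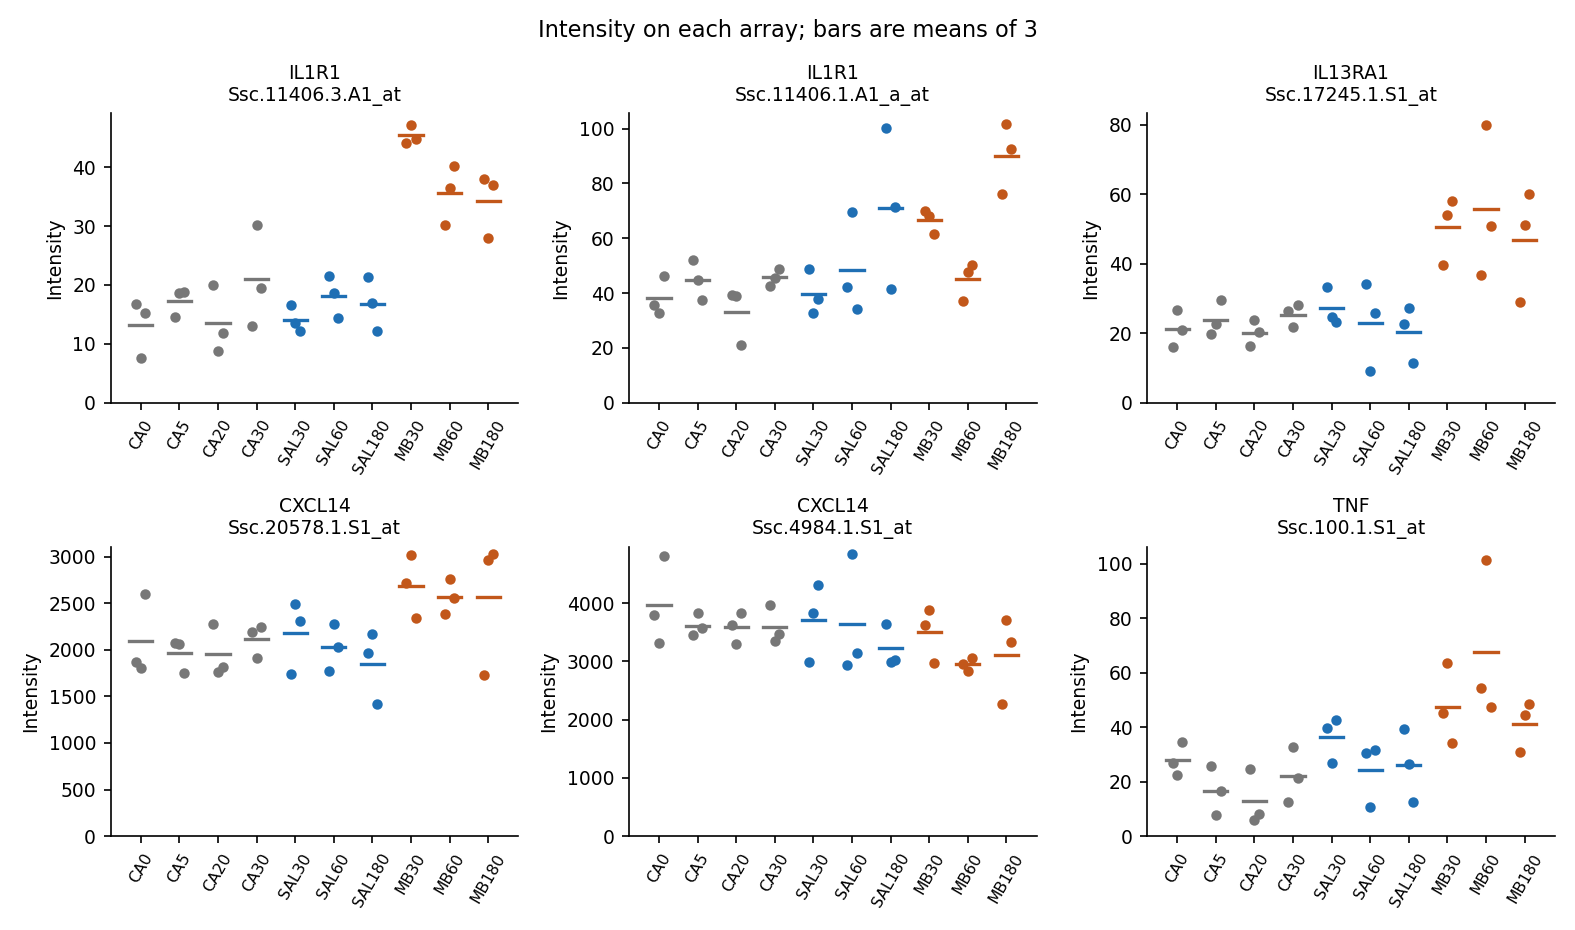
Intensity on each array (points, arbitrary units) and mean of 3 (bars) in the 10 groups for both probe sets of IL1R1, IL13RA1, both probe sets of CXCL14, and TNF. The dimmer IL1R1 probe set (the first panel) is above every saline array on all 9 methylene blue arrays, and the brighter overlaps between the arms.

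Methylene blue groups against untreated arrest gave the most calls. At 30, 60 and 180 min 7, 8 and 12 of 90 members were called against 0 min of arrest, beside 10.1%, 9.18% and 7.49% of all probe sets. All were higher but 1 at 60 min, where all probe sets split into 7.20%, 5.85% and 5.15% higher and 2.94%, 3.33% and 2.34% lower at the 3 times. Against the mean of the 4 arrest groups 34 members were called (32 higher, 2 lower, 37.8% against 33.6% of all probe sets, 22.3% higher and 11.3% lower). These comparisons share their arrest arrays with the saline ones. After quantile normalization the counts of higher and lower members became 2 and 0 at 30 min, 2 and 1 at 60 min, 5 and 1 at 180 min, and 18 and 4 for the mean. Median centring gave 2 and 1, 5 and 2, 8 and 0, and 22 and 6. Of all probe sets, 7.02%, 7.83%, 5.21% and 26.6% were called after quantile normalization. On median centring 11.3%, 11.3%, 8.63% and 33.5% were. The share of higher calls among all called probe sets, which was 71.0%, 63.7%, 68.7% and 66.4% as deposited, became 47.7%, 48.8%, 47.2% and 45.7% after quantile normalization and 32.1%, 36.1%, 30.4% and 36.2% on median centring. The median difference of all probe sets at 30 min moved from 0.11 to -0.02 and -0.07, and at 180 min from 0.10 to -0.01 and -0.06.

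The largest difference from 0 min of arrest among the called members was that of TNFRSF12A. The brighter TNFRSF12A probe set read 23.2, 11.7 and 60.8 at 0 min of arrest, 166, 223 and 168 with methylene blue at 60 min, then 163, 191 and 116 at 180 min, without overlap. The differences were 2.20 ± 0.47 (adjusted p = 0.00563) and 1.96 ± 0.47 (0.0136), and on the other probe set 0.90 ± 0.26 and 1.13 ± 0.26. TNFAIP8 rose by 0.71 ± 0.21 at 60 min and 1.04 ± 0.21 at 180 min (adjusted p = 0.0368 and 0.00488) on its dimmer probe set, and the brighter gave 0.15 and 0.60 and did not pass (0.777 and 0.17). TNFRSF1B rose by 0.68 ± 0.19 at 180 min (adjusted p = 0.026).

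Of the interleukin system, IL1R1 was higher than at 0 min of arrest at all 3 times, by 1.09 ± 0.19, 0.83 ± 0.19 and 0.80 ± 0.19 (adjusted p = 0.00127, 0.00873 and 0.0136), and at 180 min its other probe set also passed (0.97 ± 0.24, 0.0138). IL1A read 36.0, 36.3 and 68.7 at 30 min, 38.4, 42.0 and 39.2 at 60 min, then 18.3, 42.5 and 62.6 at 180 min, all above the 0 min values, a separation shown by 30.9%, 29.1% and 27.3% of all probe sets. It was called at each time with 1.36 ± 0.32, 1.22 ± 0.32 and 1.18 ± 0.32 (adjusted p = 0.00983, 0.0176 and 0.0266), and its second probe set at 30 min (1.19 ± 0.35, 0.0334). IL12RB2 was also called at each time (0.83, 0.88 and 0.88, each ± 0.24), and IL13RA1 at 30 and 60 min (0.84 and 0.91, each ± 0.26). IL2 (0.85 ± 0.24) and TNFSF4, the ligand of OX40 (1.05 ± 0.29), passed at 30 min, and IL18R1 (1.07 ± 0.27), IL4R (1.02 ± 0.31), IFNAR1 (0.81 ± 0.20) and CXCL13 (0.90 ± 0.28) at 180 min. IFNGR1 read 532, 511 and 588 at 0 min and 448, 345 and 271 with methylene blue at 60 min and fell by 0.62 on the log2 scale (SE 0.13, adjusted p = 0.00415).

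Sums of cell type markers were set beside these calls. The sum of S100A8, S100A9, S100A12 and MMP9, the 4 of 7 listed markers that were measured, was 56.5 to 105 at 0 min of arrest, 108 to 115 with saline at 180 min and 187 to 235 with methylene blue at 180 min. The first 3 had mean levels under 30, and MMP9 36.1. Over the 3 times none of them was called between the arms (0.37, 0.29, 0.16 and 0.16, adjusted p from 0.133 to 0.487). The median of all probe sets in their classes of level was 0.17 to 0.24. The sum of 6 endothelial markers was 1191 to 1334 at 0 min, 1608 to 1929 with saline and 1371 to 1738 with methylene blue at 180 min. Microglial markers (6 of 10 measured, ITGAM under 30) summed to 1979 to 3892 on the arrest arrays, 1669 to 5684 with saline and 1591 to 2727 with methylene blue. Over the 3 times TYROBP was the only microglial marker called between the arms (-0.52, adjusted p = 0.0131) and CDH5 the only endothelial one (0.31, 0.0365). The part of these cell types in the results was not tested.

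Against the mean of the arrest groups, CCL2 had the largest difference, 1.56 ± 0.31 (SE, n = 9 and 12, adjusted p = 0.000432), and kept its call under every alternative run. Its methylene blue values were 128, 215 and 254 at 30 min, 384, 347 and 198 at 60 min, then 81.4, 627 and 258 at 180 min. TNFRSF12A followed with 1.38 ± 0.26 and 0.89 ± 0.14 on its probe sets (adjusted p = 0.000249 and 4.06e-05), TNF with 0.93 ± 0.17 (0.000182), IL1R1 with 0.77 ± 0.10 (6.56e-06) and 0.54 ± 0.13 (0.0023), and IL13RA1 with 0.77 ± 0.14 (0.000184). The 2 lower members were IFNGR1 (-0.22 ± 0.07, 0.0142) and IL34 (-0.25 ± 0.08, 0.0213).

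Called in this comparison alone were 10 probe sets. Those of interleukins and their receptor were IL15, a growth factor of natural killer cells (0.62 ± 0.14, adjusted p = 0.00112), IL18, an inflammasome product (0.64 ± 0.18, 0.00813), IL12A (0.48 ± 0.14, 0.0111), IL17B (0.61 ± 0.20, 0.0193) and IL2RA (0.49 ± 0.17, 0.028). The chemokine ones were CCL4 (0.75 ± 0.25, 0.0246), CCL24 (0.42 ± 0.16, 0.0493) and the receptor CCR1 (0.49 ± 0.18, 0.0397). IFNAR2 (0.26 ± 0.09, 0.023) and the second probe set of TNFAIP8 (0.54 ± 0.15, 0.00597) completed them. Of the 3 IL17B probe sets 1 was called. The other members called here were IL18R1 (0.72 ± 0.14), TNFAIP8 (0.52 ± 0.12), both IL1A probe sets (0.77 ± 0.17 and 0.76 ± 0.19), IL12RB2 (0.56 ± 0.13), IL2 (0.55 ± 0.13), CXCL13 (0.64 ± 0.15), CCR3 (0.61 ± 0.15), IFNAR1 (0.44 ± 0.11), CXCL16 (0.51 ± 0.13), TNFSF4 (0.58 ± 0.16), TNFSF10 (0.47 ± 0.13), TNFRSF1B (0.35 ± 0.10), CXCL14 (0.35 ± 0.10) and IL10 (0.35 ± 0.12), with adjusted p from 0.000529 to 0.0264.

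Of the listed signalling and target genes of these pathways that are no members, 44 of 71 were measured, on 75 probe sets. In saline against the mean of the arrest groups 2 of the 44 rose and none fell: CEBPD and CEBPB, transcription factors induced by IL1 and IL6, by 0.90 ± 0.18 (adjusted p = 0.00722) and 0.60 ± 0.15 (0.0418). These were 2 of the 75 probe sets (2.67%), against 1.02% of all probe sets. Of the 3 CEBPD probe sets 1 passed. CEBPD was the only one called at 180 min of saline against 0 min, at 685 ± 38.3 against 157 ± 61.3 in mean intensity (SD, n = 3 each), a difference of 2.08 ± 0.33 (adjusted p = 0.00106). This too was 1 of its 3 probe sets, and 1.33% of the 75 against 0.558% of all probe sets. Between 30 and 180 min over both arms CEBPD rose on all 3 of its probe sets, by 2.12 on the brightest (adjusted p = 8.35e-06), and IRF1, a factor induced by interferon gamma, by 0.65 (0.0228). That made 4 of the 75 probe sets (5.33%), against 1.29% of all probe sets. None of the other measured genes of the list was called in these 3 comparisons or at 5, 20 or 30 min of untreated arrest.

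With methylene blue against saline 16 of the 75 probe sets were called (21.3%), against 22.0% of all probe sets, and 8 after quantile normalization. Probe sets of 9 genes were higher and of 6 lower, STAT5A being among both. The higher ones were CD14, IKBKG, LIF, MYD88, SOCS1, STAT4, STAT5A, TAB1 and TRAF6. Of the proteins that relay the IL1 receptor's signal, TRAF6 (0.56 ± 0.13, adjusted p = 0.0039) and MYD88 (0.48 ± 0.14, 0.0154) were higher and IRAK1 lower on both of its probe sets (-0.26 ± 0.07 and -0.63 ± 0.20). TRAF6 and MYD88 each had a further probe set that did not pass (0.10 and 0.22). The called TRAF6 probe set had a level of 11.6, and the median of all probe sets in its class of level was 0.24. For MYD88 the level was 50.1 and the class median 0.16. STAT3 (-0.27 ± 0.08, adjusted p = 0.014), CEBPB (-0.51 ± 0.16, 0.0222), the adhesion molecule ICAM1 (-0.42 ± 0.15, 0.0463) and IRF7 (-0.92 ± 0.25, 0.00982) were lower. IRF7, which drives interferon alpha genes, was called on 1 of its probe sets, the other giving -0.10. Against the mean of the arrest groups 30 of the 75 probe sets were called with methylene blue (40% against 33.6% of all probe sets). After quantile normalization 14 of the 75 were called, against 26.6% of all probe sets.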

How the data were processed

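Total RNA of cerebral cortex was labelled with biotin and hybridised to Affymetrix porcine arrays, 1 pig per array as far as the labels tell. The authors deposited 1 intensity per probe set and array in the series' value table. The submitters' processing notes name GCOS, the Affymetrix operating software, and neither its version nor its signal algorithm is stated there. No scanner file was used. Gene names came from GEO's platform annotation, and all 90 members matched a RefSeq gene by gene ID.

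Intensities were turned into log2(intensity + 16), with no further normalization and no filter on low values, and 124 control probe sets were left out. A model with 10 group means was fitted on the 30 arrays with limma 3.58.1 in R 4.3.3 (lmFit, then eBayes with an intensity trend, two-sided, 20 residual and 5.76 prior degrees of freedom), and p-values were adjusted by Benjamini-Hochberg over 23999 probe sets. Figures were drawn with matplotlib 3.10.9. On data simulated for 23999 probe sets, this fit recovered 52 of 100 probe sets changed by 1 log2 unit, and 95 of 100 changed by 2, in saline at 180 min against 0 min of arrest, and 98 and 99 of 100 for the mean of saline against the mean of arrest. These rates need not hold for dim members or for members of wide spread, such as CCL2 (SE 0.31 for the mean of saline against the mean of arrest). The number of arrays limits the precision, and the p-values measure the spread between these arrays.

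Named in the text are all members called in any comparison, the 3 smallest p-values in each comparison, a list of well-known members, and the highest and lowest level in each subgroup. Members, subgroups and gene lists were chosen with earlier results of these data known. Alternatives were the pseudocount, filters on level, quantile normalization and median centring, array weights, the compared groups alone, the replicate number as a block, the 3′/5′ ratio as a covariate, and leaving out each array; leaving out the 5 least correlated arrays was chosen after the data were seen. Replicate numbers did not pair the arrays: 13 of 135 same-numbered pairs had deviations from their group means that correlated above 0.1. The mean correlation was -0.002 for same-numbered pairs and 0.001 for pairs of other number.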

Additional observations from a re-analysis of the deposited data

How the results depend on the processing

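Among 110 results of named members, 2198 values under an alternative kept direction and side of the threshold, 394 lost the threshold, 13 passed it newly and 0 turned direction. Counts of called members moved by more than 1.5 times as follows. For methylene blue against 0 min of arrest at 30 min (7), the count was 4 with a pseudocount of 1, 2 and 0 above the 30th and 50th percentile of level, 2 with quantile normalization, 3 with median centring, 3 with the compared groups alone and 2 with the 3′/5′ covariate. At 60 min (8) it was 4 and 1 above those percentiles, 3 with quantile normalization, 2 with the compared groups, 3 with the covariate and 0 without the 5 least correlated arrays. At 180 min (12) it was 3 above the 50th percentile, 6 with quantile normalization, 2 with the compared groups and 5 without the 5 arrays. Against saline at 30 min (2), it was 1 with a pseudocount of 1, quantile normalization, median centring, the covariate or without the 5 arrays, and 0 above either percentile or with the compared groups. For the mean against saline (16), it was 8 and 3 above the percentiles, 7 with quantile normalization, 9 with median centring, 5 with the covariate and 6 without the 5 arrays. For the mean against arrest (34), it was 21 and 9 above the percentiles, 22 with quantile normalization and 14 with the covariate. For saline against arrest (2), it was 1 above the 50th percentile, 4 with array weights and 1 without the 5 arrays, and at 180 min against 0 min (0) it was 1 with array weights. For 180 against 30 min (1), it was 2 with quantile normalization and 0 with the compared groups or the covariate. There the share of all probe sets (1.29% in the main fit) was 1.45%, 0.454% and 0.821%. For saline against arrest (1.02%) the share was 1.61% above the 50th percentile and 1.52% with array weights. For saline at 180 min (0.558%) it was 1.11% with array weights. For methylene blue against 0 min at 60 min (9.18%) the share was 12.5% above either percentile and 7.83% with quantile normalization. It was 4.39% with the compared groups and 1.30% with the covariate. At 180 min (7.49%) it was 9.28% above the 50th percentile, 5.21% with quantile normalization and 1.74% with the compared groups. Against saline at 30 min (3.39%) it was 2.26% with the covariate and 0.0333% with the compared groups. Filters on level test fewer members by construction. Leaving out the 5 arrays removes 2 of the 3 methylene blue arrays at 60 min, so that the lone array there is assumed to vary like the other groups, and 1 each of methylene blue at 30 and 180 min and of saline at 30 min; the cause of the other shifts was not tested. The share of members under 30 was 36.7% by the highest group mean.

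With the replicate number as a block, methylene blue against saline at 30 min gave 1 call in place of 2. Of all probe sets 3.25% were called in place of 3.39%. Of the 30 arrays, 10 correlated best with their own number, where 3 numbers were possible.

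Leaving out 1 array gave 0 to 2 calls for 180 against 30 min, 2 to 7, 3 to 8 and 4 to 14 for methylene blue against 0 min of arrest at 30, 60 and 180 min, 1 to 2, 0 to 2 (2 without replicate 1 of methylene blue) and 0 to 4 (4 without replicate 1 of methylene blue) against saline, 31 to 37 for the mean against arrest, 12 to 20 for the mean against saline and 1 to 3 for saline against arrest. It gave 0 in every fit for the untreated arrest times, for saline at single times and for the difference between times. The share of all probe sets called in these fits is not given, so these counts do not set the members apart.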
